A study of Mus musculus with 16 samples.

Results

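The genes described here are 35 genes of glycolysis and of the response to low oxygen, chosen by name: 2 transporters, 16 glycolytic enzymes, 4 regulators of glycolysis and 13 other targets of hypoxia-inducible factor (HIF). A probe under the listed name was on the array for 34 of them, out of 34832 gene names in all. Each gene was represented by the probe with the highest mean log2 signal over the 16 arrays. Pkm2, pyruvate kinase, has no probe under that name, since the array names the gene Pkm, and its values are given apart. For Mxi1, a MAX-binding repressor, 0 of 4 arrays in each group were well above background. The other 33 genes were among the 25419 genes tested and were well above background on 4 of 4 arrays in every group.

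RNA came from primary alveolar type II cells of the lungs of C57BL/6 mice, and each array measured 1 Cy3-labelled sample. The 4 groups of 4 arrays were normoxia (21% O2) at 6 h, normoxia at 24 h, hyperoxia (85% O2) at 6 h and hyperoxia at 24 h. The labels give no allele or transgene, and no age or sex of the animals. They do not say whether replicates came from separate animals or cultures, so p-values measure the spread between these samples, which may be technical.

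HIF is a pair of proteins, an oxygen-labile alpha subunit (HIF1A or EPAS1) and ARNT, that binds short DNA motifs near its target genes. In oxygen the EGLN prolyl hydroxylases mark the alpha subunit and VHL sends it to the proteasome, so HIF targets are best known as genes that rise when oxygen is scarce. Glycolysis turns glucose into pyruvate, which LDHA reduces to lactate or which pyruvate dehydrogenase passes to mitochondria. Nearly every glycolytic enzyme has a gene that HIF can activate. The comparison of normoxia with hyperoxia asks how these genes stand when oxygen is raised above room air.

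Values are log2 signal relative to the 75th percentile of the array, so 0 is the signal of that percentile. A log2 fold change is given with its SE, and a group mean with its SD over 4 arrays. A gene rose or fell where its adjusted p from limma's moderated test, with Benjamini-Hochberg adjustment over all 25419 genes, was under 0.05. The share of probes well above background was 53.6% to 69.0% per array, and was lowest on normoxia 24 h replicate 3. At 6 h the 75th percentile lay between 899 and 1021 intensity units, and at 24 h between 556 and 801. Slide 1 held the 6 h arrays and slide 2 the 24 h arrays, so time and slide cannot be told apart. On both slides normoxia took row 1 and hyperoxia row 2, so oxygen and slide row cannot be told apart either.

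Markers of type II cells were detected for 11 of 12 listed genes, with the phosphate transporter Slc34a2 not well above background on any array. Sftpc, a surfactant protein made by type II cells, averaged 3.88 ± 0.48 in normoxia at 6 h and 1.39 ± 0.82 at 24 h. All 12 listed fibroblast and smooth muscle markers were tested too. Their summed signal, in units of the 75th percentile, was 985 to 1189 per array in normoxia and 929 to 1220 in hyperoxia at 6 h. At 24 h it was 1719 to 1965 in normoxia and 1583 to 1685 in hyperoxia. The summed signal of the type II markers was 60.6 to 74.5 and 56.7 to 81.1 at 6 h, and 40.3 to 45.8 and 29.9 to 37.0 at 24 h, in normoxia and hyperoxia. In such bulk RNA, fewer cells of a type and less RNA per cell cannot be told apart.

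RefSeq promoters of 300 bases, 250 before and 50 after the start of a transcript on build GRCm38.p6, were held for 33 of the 35 genes, 51 promoters in all. They were searched on both strands for ACGTG and GCGTG, the core letters of the HIF response element. A CACGTG holds ACGTG on both strands and counts as 2 copies. At least 1 copy of either motif was found in 39 of the 51 promoters, 76.5%, against 43.8% of all 32851 promoters of the same length. ACGTG was in 52.9% of the promoters, against 19.6% of all. Their median GC content was 62.0% against 52.7% of all. The stretches below are the 250 bases before the start, 5′ to 3′ on the strand of the gene, with both motifs in capitals (CACGT and CACGC are the motifs read on the other strand). Bnip3, Ankrd37 and Adm are shown since they were among the members with the largest positive hyperoxia effects, P4ha1 and P4ha2 since they were lower in hyperoxia at 24 h, Pdk1 since it rose at 6 h and Ldha since its promoter held the most copies, 7 in 300 bases.
Bnip3: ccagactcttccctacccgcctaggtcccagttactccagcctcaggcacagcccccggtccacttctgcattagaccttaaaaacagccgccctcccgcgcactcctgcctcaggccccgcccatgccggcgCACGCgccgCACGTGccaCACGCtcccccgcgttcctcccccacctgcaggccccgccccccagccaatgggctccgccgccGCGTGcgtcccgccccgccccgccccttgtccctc
Ankrd37: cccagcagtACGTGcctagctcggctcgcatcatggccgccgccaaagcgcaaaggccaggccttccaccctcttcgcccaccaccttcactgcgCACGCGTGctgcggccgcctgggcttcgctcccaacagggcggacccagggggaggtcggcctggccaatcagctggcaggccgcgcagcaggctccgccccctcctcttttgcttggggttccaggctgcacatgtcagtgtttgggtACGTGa
Adm: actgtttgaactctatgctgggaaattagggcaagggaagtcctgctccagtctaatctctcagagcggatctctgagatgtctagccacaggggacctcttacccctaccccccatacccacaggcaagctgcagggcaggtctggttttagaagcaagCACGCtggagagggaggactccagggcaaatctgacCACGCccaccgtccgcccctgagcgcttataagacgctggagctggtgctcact
P4ha1: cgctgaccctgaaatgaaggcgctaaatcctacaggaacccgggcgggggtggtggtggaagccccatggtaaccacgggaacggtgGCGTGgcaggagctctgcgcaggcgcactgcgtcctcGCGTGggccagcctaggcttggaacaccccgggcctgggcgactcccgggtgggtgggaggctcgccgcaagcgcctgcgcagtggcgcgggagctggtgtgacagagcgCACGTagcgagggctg
P4ha2: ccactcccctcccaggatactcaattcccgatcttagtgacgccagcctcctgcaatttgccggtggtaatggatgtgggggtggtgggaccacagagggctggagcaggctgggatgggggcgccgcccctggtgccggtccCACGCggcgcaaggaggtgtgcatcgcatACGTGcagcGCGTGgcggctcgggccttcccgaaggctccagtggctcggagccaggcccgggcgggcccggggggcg
Pdk1: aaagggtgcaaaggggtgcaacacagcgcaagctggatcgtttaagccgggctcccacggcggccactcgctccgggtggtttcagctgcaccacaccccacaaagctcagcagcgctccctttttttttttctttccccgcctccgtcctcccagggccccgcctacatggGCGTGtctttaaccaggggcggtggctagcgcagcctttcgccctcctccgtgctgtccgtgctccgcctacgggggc
Ldha: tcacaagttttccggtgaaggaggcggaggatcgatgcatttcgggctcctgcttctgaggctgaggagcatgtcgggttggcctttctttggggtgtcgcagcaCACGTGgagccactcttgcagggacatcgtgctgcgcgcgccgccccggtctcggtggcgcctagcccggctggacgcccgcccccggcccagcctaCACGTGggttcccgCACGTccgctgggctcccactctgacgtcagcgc

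The Bnip3 stretch lies at chr7:138909507-138909756, minus strand, and held 5 copies, including a CACGTG. The Ankrd37 stretch, at chr8:45999851-46000100, minus strand, held 4. Adm, at chr7:110627407-110627656, plus strand, held 2 copies of GCGTG and none of ACGTG. The stretches of P4ha1, at chr10:59323046-59323295, plus strand, and of P4ha2, at chr11:54100674-54100923, plus strand, held 3 copies each. At least 1 copy was found for 30 of the 33 genes with a promoter. Copies in genes that were higher in hyperoxia and in genes that were lower therefore carry no information on direction. The Pdk1 stretch, at chr2:71872974-71873223, plus strand, held 1 copy. Ldha, at chr7:46845554-46845803, plus strand, held 5 in the stretch shown and 2 more after the start. A copy is a match of letters and no measure of binding.

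At 6 h, 1 of the 33 genes rose in hyperoxia and 0 fell. Of all genes, 0.236% were called higher and 0.0905% lower, 0.327% either way. At an unadjusted p under 0.05, limma found 10 members higher and 0 lower. The shares of all genes above are of adjusted calls. The share of all genes at an unadjusted p under 0.05 was not counted. Counts of this kind, here and further on, therefore have no background beside them. The 1 called gene was Pdk1, a kinase that inactivates pyruvate dehydrogenase and so turns pyruvate away from mitochondria. Its log2 signal was -0.44, -0.28, -0.32 and -0.32 in normoxia and 0.29, 0.50, 0.23 and 0.21 in hyperoxia. All 4 hyperoxia arrays lay above all 4 normoxia arrays. The log2 fold change was 0.65 (SE 0.088, adjusted p = 0.0029), which is 1.57-fold, and Pdk1 was called under all 21 alternative settings.

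Bnip3, a mitophagy receptor of the outer mitochondrial membrane, had the largest difference among the members at 6 h but missed the threshold. Its log2 signal was 2.74, 2.85, 2.39 and 2.61 in normoxia and 3.77, 3.79, 3.47 and 3.31 in hyperoxia. The groups did not overlap. The log2 fold change was 0.94 (SE 0.19, adjusted p = 0.064), and it passed in 6 of 21 alternatives, over which the adjusted p ran from 0.0103 to 0.196. The other 2 probes of Bnip3 gave log2 fold changes of 1.04 and 0.99.

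The estimates of the other members at 6 h lay mostly in 1 direction, and none passed. In all, 31 of 33 estimates were above 0 (30 with quantile normalization), with a median log2 fold change of 0.14 against 0.011 over all genes, of which 13671 of 25419 were above 0. The groups did not overlap for 5 members, all higher in hyperoxia (Tpi1, Pgk1, Pdk1, Bnip3 and Kdm3a), and 2.31% of all genes were higher without overlap. Triose phosphate isomerase Tpi1 was 5.80, 5.80, 5.67 and 5.77 in normoxia and 6.04, 6.38, 5.84 and 6.09 in hyperoxia, a log2 fold change of 0.32 (SE 0.089, adjusted p = 0.226). For phosphoglycerate kinase Pgk1 it was 0.31 (SE 0.096, adjusted p = 0.345). For the phosphofructokinase Pfkl, which sets the pace of glycolysis in liver, it was 0.42 (SE 0.16, adjusted p = 0.519), with a wide spread in hyperoxia, where the arrays read 1.79, 2.36, 1.41 and 2.23. For Ankrd37 it was 0.47 (SE 0.20, adjusted p = 0.604), for Adm 0.40 (SE 0.31, adjusted p = 0.882) and for Kdm3a 0.36 (SE 0.12, adjusted p = 0.403). The 95% intervals reached 0.91 for Ankrd37 and 1.06 for Adm. Without hyperoxia 6 h replicate 3 Pfkl (0.60, adjusted p = 0.0476) and Tpi1 (0.41, adjusted p = 0.0295) passed. The 95% interval of the log2 fold change lay within -0.5 and 0.5 for 21 of the 32 members not called and reached past it for the other 11.

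**Figure D1:**
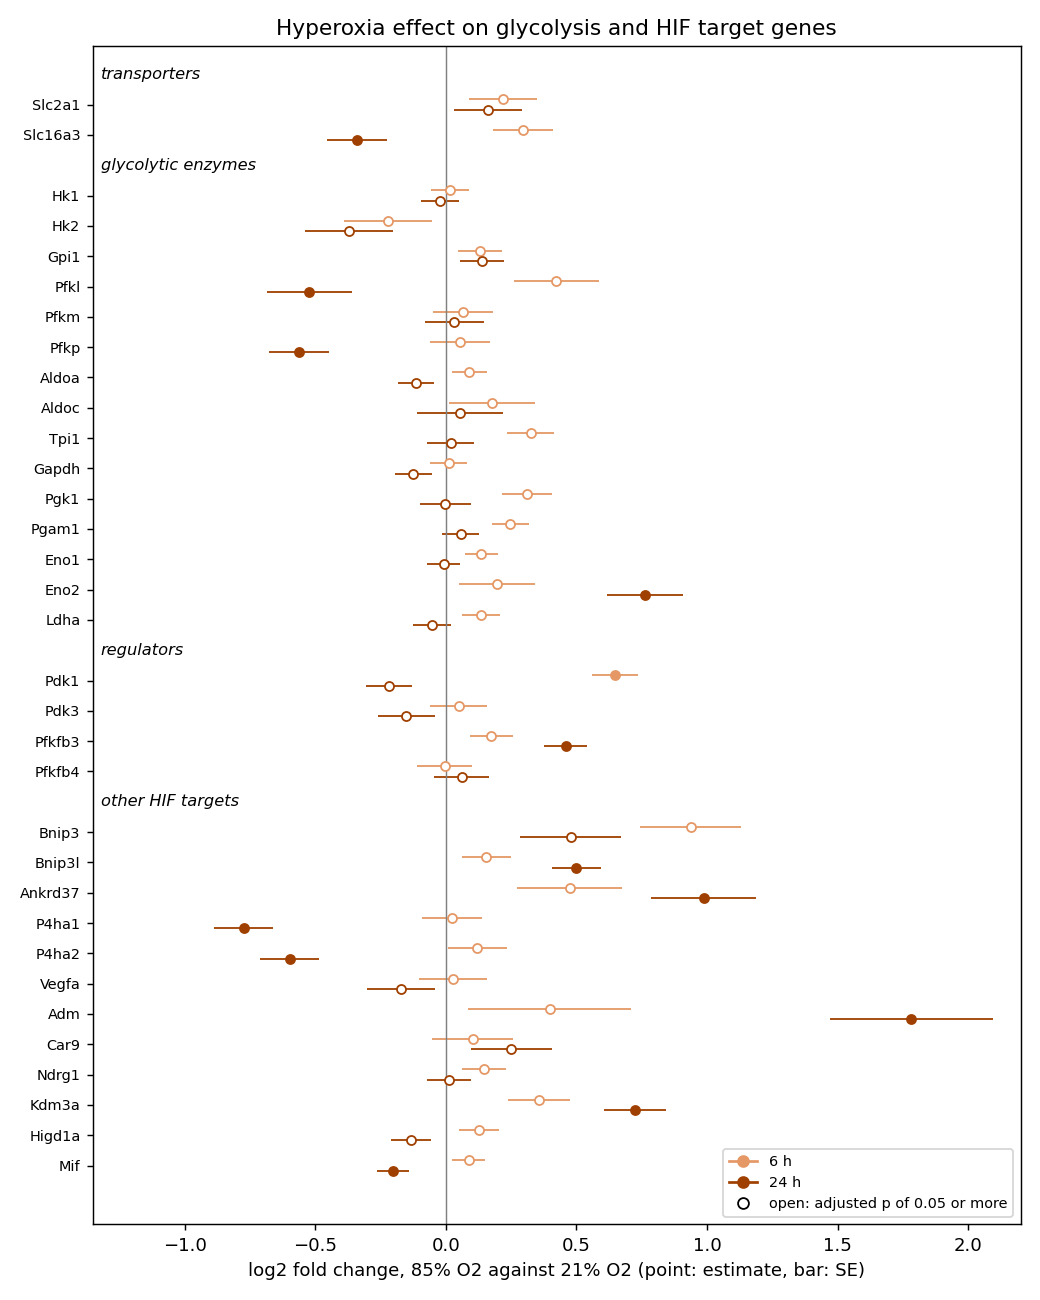
Log2 fold change of hyperoxia (85% O2) against normoxia (21% O2) for the 33 tested members by role, at 6 h and at 24 h, with SE bars; filled points have an adjusted p under 0.05. At 6 h Pdk1 is filled and nearly all points lie right of 0, and at 24 h 6 members lie to the right and 6 to the left with filled points.

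At 24 h the members split: 6 rose in hyperoxia and 6 fell, of 33 tested. Of all genes, 15.5% were called higher and 12.8% lower, so the 6 members called in each direction are near the background, of which 28.3% was called either way. The median log2 fold change over members was -0.0011, and 0.0051 over all genes. The members that rose were Eno2, Pfkfb3, Bnip3l, Ankrd37, Adm and Kdm3a. Those that fell were Slc16a3, Pfkl, Pfkp, P4ha1, P4ha2 and Mif. The groups did not overlap for 6 members higher and 5 lower, and over all genes for 17.9% higher and 15.3% lower. In all, 9 of the 12 calls held in every leave-one-out fit and every other alternative, and those of Slc16a3, Pfkl and Mif did not.

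Of the transporters, the basal glucose carrier Slc2a1 was 4.79 ± 0.14 in normoxia and 4.95 ± 0.17 in hyperoxia, a log2 fold change of 0.16 (SE 0.13, adjusted p = 0.403). The lactate exporter Slc16a3 fell. It read 5.45, 5.50, 5.07 and 5.47 in normoxia and 5.09, 4.94, 5.02 and 5.09 in hyperoxia. The third normoxia array lay within the hyperoxia range and the other 3 above it. The log2 fold change was -0.34 (SE 0.11, adjusted p = 0.0376), and the call was lost in 11 of 21 alternatives, quantile normalization and 7 of 8 leave-one-out fits among them (adjusted p = 0.0555 to 0.1 there). Without normoxia 24 h replicate 3 it was -0.44 (adjusted p = 0.00707).

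Of the 15 glycolytic enzymes 1 rose at 24 h, 2 fell and 12 did not pass, with a median log2 fold change of -0.0078. The 3 calls stand beside 28.3% of all genes called, a share that the count of enzymes does not exceed. The phosphofructokinases, which commit sugar to glycolysis, were the enzymes that fell. The liver-type Pfkl read 2.02, 1.84, 2.03 and 2.22 in normoxia and 1.63, 1.41, 1.44 and 1.54 in hyperoxia, with no overlap. Its log2 fold change was -0.52 (SE 0.16, adjusted p = 0.026), so its signal decreased by 30.4%. That call was lost without any 1 of normoxia replicates 1, 3 and 4 and hyperoxia replicates 2 and 3 at 24 h, and over all 8 leave-one-out fits the log2 fold change ran from -0.58 to -0.46 and the adjusted p from 0.0258 to 0.0737.

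The platelet-type Pfkp read 2.02, 2.22, 2.16 and 2.13 in normoxia and 1.60, 1.58, 1.58 and 1.51 in hyperoxia. Every hyperoxia array lay below every normoxia array, by at least the spread within either group. Pfkp had a log2 fold change of -0.56 (SE 0.12, adjusted p = 0.00192), and the other Pfkp probe fell too (-0.38, adjusted p = 0.0284 over 36713 probes). The muscle-type Pfkm differed by 0.032 (SE 0.11) and did not pass. Thus 2 of the 3 phosphofructokinase genes fell.

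The neuronal enolase Eno2 rose. It read 0.29, 0.28, 0.39 and 0.40 in normoxia and 1.25, 0.79, 1.33 and 1.05 in hyperoxia, without overlap. Eno2 had a log2 fold change of 0.76 (SE 0.15, adjusted p = 0.00115), 1.70-fold. The broadly expressed enolase Eno1, which makes the same product, differed by -0.0078 (SE 0.063).

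The remaining enzymes did not pass. Hk2 did with replicates as a block over both times, and Gpi1 and Hk1 with the mean over all probes of a gene. Hexokinase 2, which traps glucose in the cell, differed by -0.37 (SE 0.17, adjusted p = 0.122), and Hk1 by -0.022 (SE 0.074) on its brightest probe, which is described further on. Glucose phosphate isomerase Gpi1 differed by 0.14 (SE 0.083), the aldolases Aldoa and Aldoc by -0.12 (SE 0.069) and 0.056 (SE 0.16), and Tpi1 by 0.018 (SE 0.089). Gapdh differed by -0.12 (SE 0.071), Pgk1 by -0.0011 (SE 0.096), the mutase Pgam1 by 0.057 (SE 0.071) and lactate dehydrogenase Ldha by -0.052 (SE 0.072). The 95% interval of the log2 fold change lay within -0.5 and 0.5 for 11 of the 12 enzymes not called, all but Hk2. Pyruvate kinase, under the name Pkm, differed by 0.18 (SE 0.077, adjusted p = 0.103).

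Of the 4 regulators, Pfkfb3 rose. It makes the sugar bisphosphate that activates phosphofructokinase. Pfkfb3 read 2.74, 2.68, 2.71 and 2.92 in normoxia and 3.23, 3.11, 3.16 and 3.39 in hyperoxia, with every hyperoxia array higher. Its log2 fold change was 0.46 (SE 0.082, adjusted p = 0.000693), and its other probe gave 0.53 (adjusted p = 0.0093 over probes). Pfkfb3 thus rose in the group in which the phosphofructokinase genes Pfkl and Pfkp fell.

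At 24 h Pdk1 read 0.050, -0.040, -0.29 and -0.0028 in normoxia and -0.15, -0.38, -0.36 and -0.26 in hyperoxia, a log2 fold change of -0.22 (SE 0.088, adjusted p = 0.0825). The third normoxia array lay among the hyperoxia arrays. Pdk1 passed in 4 of 21 alternatives, and without normoxia 24 h replicate 3 the value was -0.29 (adjusted p = 0.0188). With replicate pairs as a block within each time Pdk1 fell (adjusted p = 0.0351). Its relative Pdk3 differed by -0.15 (SE 0.11) and Pfkfb4, another maker of the same activator, by 0.061 (SE 0.11).

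Of the 12 other HIF targets 4 rose at 24 h and 3 fell, where 15.5% and 12.8% of all genes did, with a median of 0.13 (0.018 with normexp). Adm, which encodes the vasodilator peptide adrenomedullin, had the largest change of all members. It read -0.11, -1.03, -0.24 and -0.082 in normoxia and 1.54, 1.16, 1.58 and 1.39 in hyperoxia. The second normoxia array was the lowest, and the groups were far apart with or without it. The log2 fold change was 1.78 (SE 0.31, adjusted p = 0.000552), 3.44-fold, and was 1.56 to 1.88 when single arrays were left out.

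Ankrd37, an ankyrin repeat protein, read -0.44, -0.83, -0.80 and -0.18 in normoxia and 0.52, 0.15, 0.14 and 0.90 in hyperoxia. In both groups replicates 1 and 4 were the higher, and the groups did not overlap. Its log2 fold change was 0.99 (SE 0.20, adjusted p = 0.00191), 1.98-fold. The histone demethylase Kdm3a, which removes methyl marks from histone H3, read 2.08, 1.90, 1.86 and 2.19 in normoxia and 2.74, 2.75, 2.70 and 2.76 in hyperoxia. The hyperoxia arrays nearly coincided and lay above all normoxia arrays, with a log2 fold change of 0.73 (SE 0.12, adjusted p = 0.000314).

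Bnip3l, the second mitophagy receptor of the list, rose. It read 3.64, 3.58, 3.35 and 3.57 in normoxia and 4.09, 4.00, 4.11 and 3.93 in hyperoxia, a log2 fold change of 0.50 (SE 0.094, adjusted p = 0.00104). Its 4 probes gave 0.24 to 0.50, of which 3 passed over all probes. Bnip3 differed by 0.48 (SE 0.19, adjusted p = 0.0823), with normoxia arrays at 3.76, 3.14, 3.16 and 3.95 and hyperoxia arrays at 4.13, 3.61, 3.96 and 4.22. Replicates 1 and 4 were the higher in both groups. Bnip3 passed without normoxia 24 h replicate 4 (0.63, adjusted p = 0.0246) and without hyperoxia 24 h replicate 2 (0.60, adjusted p = 0.0398). With replicate pairs as a block within each time Bnip3 rose too (adjusted p = 0.0283).

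Both collagen prolyl hydroxylase subunits of the list fell. These enzymes hydroxylate proline in procollagen and use oxygen to do so. P4ha1 read 1.40, 1.28, 1.23 and 1.28 in normoxia and 0.52, 0.59, 0.54 and 0.44 in hyperoxia. The groups were separated by more than the whole range of either. This gave a log2 fold change of -0.77 (SE 0.11, adjusted p = 0.000136), so its signal decreased by 41.5%, and a second probe gave -0.91. P4ha2 read 4.81, 4.49, 4.78 and 4.95 in normoxia and 4.25, 3.87, 4.18 and 4.32 in hyperoxia, also without overlap, with a log2 fold change of -0.60 (SE 0.11, adjusted p = 0.000957).

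Mif, a small cytokine that is also a HIF target, fell slightly. It read 7.80, 7.61, 7.58 and 7.75 in normoxia and 7.48, 7.43, 7.50 and 7.51 in hyperoxia. The gap was narrow but all hyperoxia arrays were lower, with a log2 fold change of -0.20 (SE 0.063, adjusted p = 0.0252), and the call did not hold when replicate 1 or 4 of normoxia, or replicate 1 or 2 of hyperoxia, was left out at 24 h, with values of -0.24 to -0.16 over the leave-one-out fits. The angiogenic factor Vegfa differed by -0.17 (SE 0.13, adjusted p = 0.371), carbonic anhydrase Car9 by 0.25 (SE 0.16, adjusted p = 0.262), Ndrg1 by 0.012 (SE 0.084) and the mitochondrial protein Higd1a by -0.13 (SE 0.077, adjusted p = 0.222). None of these 4, which include widely used markers of hypoxia, passed the test.

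**Figure D2:**
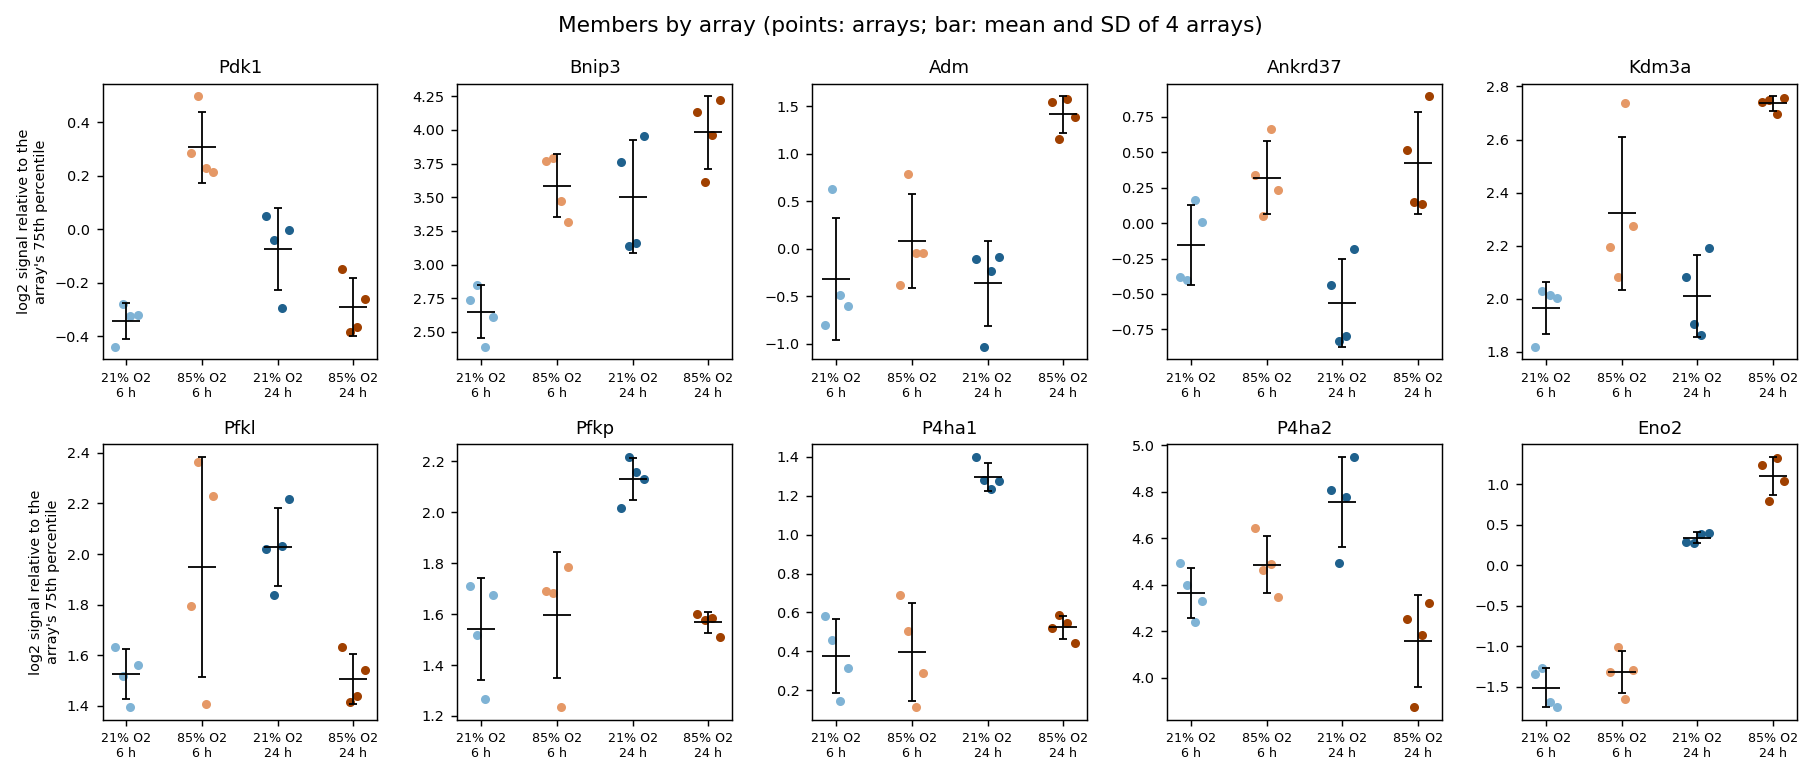
Log2 signal relative to the 75th percentile of the array for 10 members on each of the 16 arrays, by oxygen and time, with the mean and SD of each group of 4. Pdk1 is high in hyperoxia at 6 h and not at 24 h, Adm and Kdm3a are high in hyperoxia at 24 h, and Pfkp and P4ha1 are higher in normoxia at 24 h than in hyperoxia.

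Some markers of cell types differed at 24 h, where 15.5% of all genes rose and 12.8% fell. Of the 12 fibroblast and smooth muscle markers 2 fell in hyperoxia, the smooth muscle genes Des (-1.62, SE 0.23) and Cnn1 (-0.45, SE 0.11), and 0 rose. Of the 11 type II markers 4 fell, Lamp3 (-1.03, SE 0.078) and Sftpb (-0.95, SE 0.25) among them, and Abca3 rose (0.68, SE 0.10). Of 10 macrophage markers 1 rose, Cd68 (1.02, SE 0.093), and of 6 neutrophil markers 1 rose, S100a8 (1.75, SE 0.39). The club cell gene Scgb1a1 (0.78, SE 0.25) rose, 1 of 4 club and secretory markers, as did Tppp3 (0.46, SE 0.099), 1 of 6 ciliated markers. Of 6 endothelial markers 1 fell, Egfl7 (-0.31, SE 0.074). No type I or lymphocyte marker passed, of 7 tested in each list (limma's unadjusted p was under 0.05 for 0 and 1 of them). The collagen genes Col1a1 and Col1a2 differed by -0.15 (SE 0.081) and -0.31 (SE 0.12) and did not pass. The part of these cells in the results at 24 h was not tested.

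Set beside each other, the glycolytic enzymes and the other HIF targets had near medians at 6 h (0.13 and 0.14). At 24 h the median of the enzymes was -0.0078 (0.030 with quantile normalization, 0.011 with normexp). That of the other HIF targets was 0.13 (0.14 with quantile normalization, 0.018 with normexp). With normexp the medians were thus near each other at 24 h too. The range of single genes was wider in the other HIF targets, from -0.77 to 1.78, than in the enzymes, from -0.56 to 0.76. Per array, the median deviation of the 15 enzymes from their own means was -0.35 to -0.15 in normoxia and -0.22 to -0.019 in hyperoxia at 6 h. At 24 h it was 0.10 to 0.25 and 0.077 to 0.20. For the 12 other HIF targets it was -0.23 to -0.18 in normoxia and -0.12 to 0.044 in hyperoxia at 6 h, without overlap. At 24 h it was -0.18 to 0.22 and 0.043 to 0.32, where the ranges overlapped. Within same-numbered arrays at 24 h, scaled to the 75th percentile, the median of the other HIF targets was higher in hyperoxia in 4 of 4 pairs, by 0.12, 0.095, 0.27 and 0.061. That of the enzymes was lower in 4 of 4 pairs, by -0.14, -0.023, -0.021 and -0.10. For the other HIF targets replicates 1 and 4 were the higher in both oxygen groups at 24 h.

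**Figure D3:**
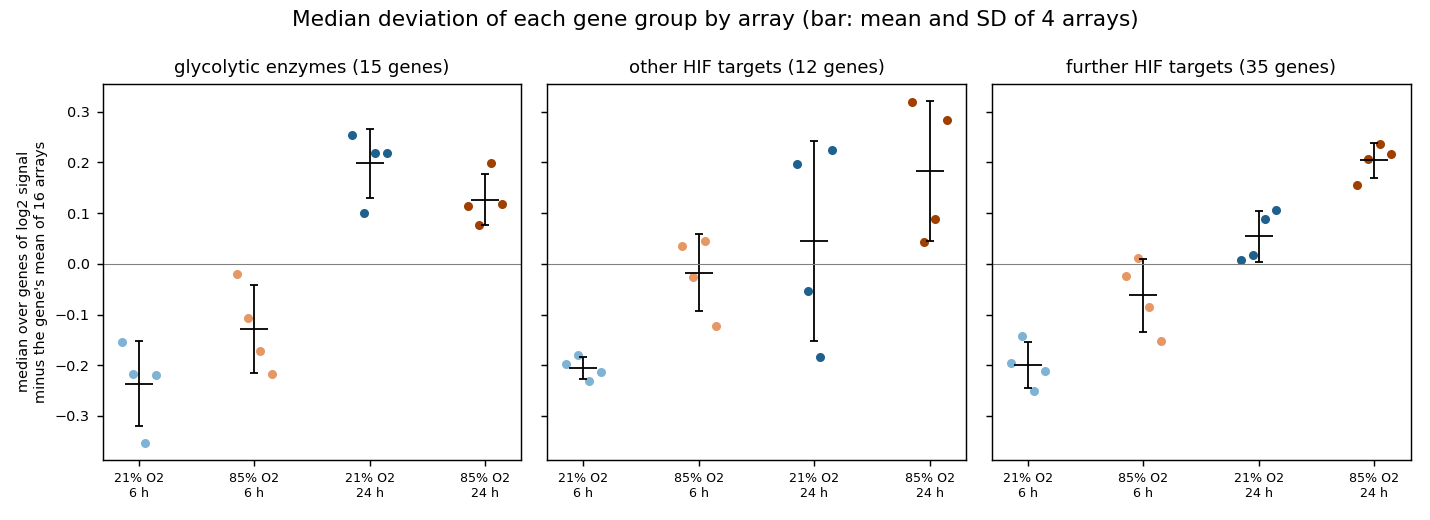
Median over the genes of a group of the log2 signal minus each gene's mean over 16 arrays, one point per array, with the mean and SD of 4 arrays. The glycolytic enzymes lie lower at 6 h than at 24 h (in hyperoxia the direction flips with quantile normalization), and the other HIF targets lie lowest in normoxia at 6 h.

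The effect of hyperoxia differed between the times for 7 members, in each of which it was lower at 24 h than at 6 h. The difference of the log2 fold changes, 24 h less 6 h, was called lower for 5.64% of all genes and higher for 6.64%. No member was called higher, while limma gave 5 at an unadjusted p under 0.05 and up to 4 members passed under other settings. Pdk1 had the difference with the lowest adjusted p, -0.86 (SE 0.12, adjusted p = 0.000375), from 0.65 at 6 h to -0.22 at 24 h. The largest was that of Pfkl, -0.94 (SE 0.23, adjusted p = 0.0144), from 0.42 to -0.52. The difference was -0.80 (SE 0.16, adjusted p = 0.00483) for P4ha1, -0.72 (SE 0.16, adjusted p = 0.00801) for P4ha2 and -0.62 (SE 0.16, adjusted p = 0.0224) for Pfkp. Their effects went from 0.024, 0.12 and 0.056 at 6 h to -0.77, -0.60 and -0.56.

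For Slc16a3 the difference was -0.64 (SE 0.16, adjusted p = 0.0186). For Mif it was -0.29 (SE 0.088, adjusted p = 0.0457), and that call was lost in 16 of 28 alternatives. The other 6 calls held in all 28. Adm had the largest difference in the other direction, 1.38 (SE 0.44, adjusted p = 0.0551), which passed in 7 of 28 alternatives, with adjusted p from 0.013 to 0.107. Over all 33 members 24 estimates were below 0 and 9 above, with a median of -0.15 against -0.0074 over all genes.

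In normoxia 28 of 33 estimates were above 0 at 24 h against 6 h (26 with quantile normalization), and in hyperoxia 22 were above and 11 below, but 17 and 16 with quantile normalization. Both the direction in hyperoxia and the number called thus depended on the scaling of the arrays. In normoxia 22 of 33 rose and 1 fell, where 20.6% of all genes were called higher and 23.5% lower (44.2% either way). In hyperoxia 14 rose and 4 fell, where 25% of all genes were called higher and 27.3% lower (52.3% either way). With quantile normalization the members called higher and lower were 10 and 0 in normoxia and 8 and 7 in hyperoxia. Of all 25419 genes that setting called 4675 higher and 5320 lower in normoxia, and 5956 and 6081 in hyperoxia. The 8 and 7 members in hyperoxia are near that background. With the median as the scaling point the members called were 26 and 0 in normoxia, and 21 and 1 in hyperoxia. These comparisons share the 24 h arrays with the comparison of oxygen at 24 h and the 6 h arrays with that at 6 h.

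Scaling to the median moved the median of all genes over time by 0.21 in normoxia and 0.22 in hyperoxia, and normexp background correction moved it by 0.13 and 0.11. The calls among all genes in normoxia were 5244 higher and 5981 lower, against 10106 and 3410 with the median and 8514 and 3645 with normexp. In hyperoxia they were 6354 and 6951, against 10687 and 4204, and 7815 and 4613. Relative to the median of all genes, the median of the glycolytic enzymes over time was 0.42 in normoxia and 0.25 in hyperoxia. Scaling to the median in place of the 75th percentile shifts all genes of an array alike, so it cannot change these values. With normexp the relative median of the enzymes was 0.28 and 0.14. With quantile normalization it was 0.12 and -0.046, so the direction of the enzymes in hyperoxia flipped. For the other HIF targets it was 0.26 and 0.16, with normexp 0.11 and 0.090, and 0.10 in both with quantile normalization.

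Of the glycolytic enzymes 13 of 15 rose in normoxia and 9 in hyperoxia, with 0 and 1 falling. Of all genes 20.6% were called higher and 23.5% lower in normoxia, and 25% and 27.3% in hyperoxia. With quantile normalization 6 and 3 enzymes rose, and 0 and 2 fell. That setting called 4675 of all 25419 genes higher and 5320 lower in normoxia, and 5956 and 6081 in hyperoxia. Hk1, Gapdh, Pgk1 and Eno1 count here by probes with coordinates off the gene's chromosome. With its brightest own-chromosome probe Hk1 fell in normoxia and did not pass in hyperoxia. Eno2 rose most, under every scaling. It read -1.34, -1.27, -1.69 and -1.74 in normoxia at 6 h and 0.29, 0.28, 0.39 and 0.40 at 24 h, a log2 fold change of 1.85 (SE 0.15, adjusted p = 2.68e-06), 3.61-fold. In hyperoxia the change was 2.42 (SE 0.15, adjusted p = 1.53e-08). Eno1 rose by 0.53 (SE 0.063) and 0.39 (SE 0.063), and Pfkm by 0.66 (SE 0.11) and 0.62 (SE 0.11). Gapdh and Aldoa rose in hyperoxia by 0.23 (SE 0.071) and 0.19 (SE 0.069) but stood at -0.048 and -0.054 with quantile normalization.

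The difference of the hyperoxia effects is also the difference of the changes over time, so the 7 members called above changed differently in the 2 oxygen groups. P4ha1 read 0.58, 0.46, 0.14 and 0.31 in normoxia at 6 h and rose by 0.92 (SE 0.11, adjusted p = 4.43e-05), while in hyperoxia the change was 0.13 (SE 0.11, adjusted p = 0.373). Pfkp rose in normoxia by 0.59 (SE 0.12) and changed by -0.030 (SE 0.12) in hyperoxia. P4ha2, Pfkl and Slc16a3 rose in normoxia (0.39, 0.50 and 0.34) and fell in hyperoxia (-0.33, -0.44 and -0.29). These rises were lost with quantile normalization, and those of Pfkl and Slc16a3 also with normexp. The falls were lost with the median as the scaling point. In hyperoxia the falls of Pfkl and Slc16a3 were also lost with no filter and with the compared arrays alone. The fall of Slc16a3 was lost in 6 of 8 leave-one-out fits (all but those without hyperoxia 6 h replicates 3 and 4), with values of -0.35 to -0.21. That of Pfkl was lost in 5 (without hyperoxia 24 h replicates 2, 3 or 4 or 6 h replicates 2 or 4; -0.62 to -0.30), and that of P4ha2 in 2 (without hyperoxia 24 h replicate 2 or 6 h replicate 1; -0.38 to -0.23). In normoxia the rise of Slc16a3 was lost in 4 (without 24 h replicates 1, 2 or 4 or 6 h replicate 3; 0.27 to 0.44) and that of Pfkl in 2 (without 24 h replicate 4 or 6 h replicate 3; 0.44 to 0.56). Pdk1 also rose in normoxia (0.27, adjusted p = 0.0231) and fell in hyperoxia (-0.59, adjusted p = 7.58e-05). Its rise was lost in 4 of 8 leave-one-out fits (without normoxia 24 h replicates 1, 2 or 4 or 6 h replicate 1), with values of 0.23 to 0.34.

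Other members rose in hyperoxia and did not pass in normoxia. The estimates in normoxia and hyperoxia were -0.048 (SE 0.31) and 1.34 (SE 0.31) for Adm, and 0.044 (SE 0.12) and 0.41 (SE 0.12) for Kdm3a. They were 0.13 (SE 0.094) and 0.48 (SE 0.094) for Bnip3l, and 0.15 (SE 0.082) and 0.44 (SE 0.082) for Pfkfb3. With the median as the scaling point Bnip3l and Pfkfb3 rose in normoxia too, and the test of the difference did not pass for any of them. Bnip3 rose in normoxia by 0.85 (SE 0.19, adjusted p = 0.00295), from arrays of 2.74, 2.85, 2.39 and 2.61 to 3.76, 3.14, 3.16 and 3.95, and differed by 0.40 (SE 0.19, adjusted p = 0.101) in hyperoxia. Ndrg1, a stress-response protein, rose in both (0.57 and 0.44), and Car9 fell in normoxia (-0.44, SE 0.16, adjusted p = 0.0315), a call lost under quantile, median and normexp settings alike and without normoxia 24 h replicates 2 or 3 or 6 h replicates 3 or 4 (-0.57 to -0.33).

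Some markers of cell types changed over time as well. Of all genes 20.6% rose and 23.5% fell in normoxia, and 25% rose and 27.3% fell in hyperoxia. Of the 12 fibroblast and smooth muscle markers 8 rose and 0 fell in each oxygen group, among them the smooth muscle actin Acta2, with 0.84 (SE 0.13) in normoxia and 0.75 (SE 0.13) in hyperoxia. Of the 11 type II markers 6 fell and 2 rose in normoxia, and 7 fell and 0 rose in hyperoxia, Sftpc by -2.50 (SE 0.43) and -2.51 (SE 0.43). Of the 10 macrophage markers 4 fell and 1 rose in normoxia, and 5 fell and 2 rose in hyperoxia. Of the 6 ciliated markers 4 and 3 fell and 0 rose, and of the 6 neutrophil markers 3 fell and 1 rose in each. The 7 type I markers gave 3 falls and 1 rise in normoxia and 4 and 2 in hyperoxia, and the 4 club and secretory markers 2 falls and 1 rise in each. Of the 6 endothelial markers 1 fell and 2 rose in normoxia and 1 fell and 1 rose in hyperoxia, and of the 7 lymphocyte markers 1 fell and 1 rose, and 2 fell and 1 rose. The part of these cells in the change of glycolytic genes over time was not tested.

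**Figure D4:**
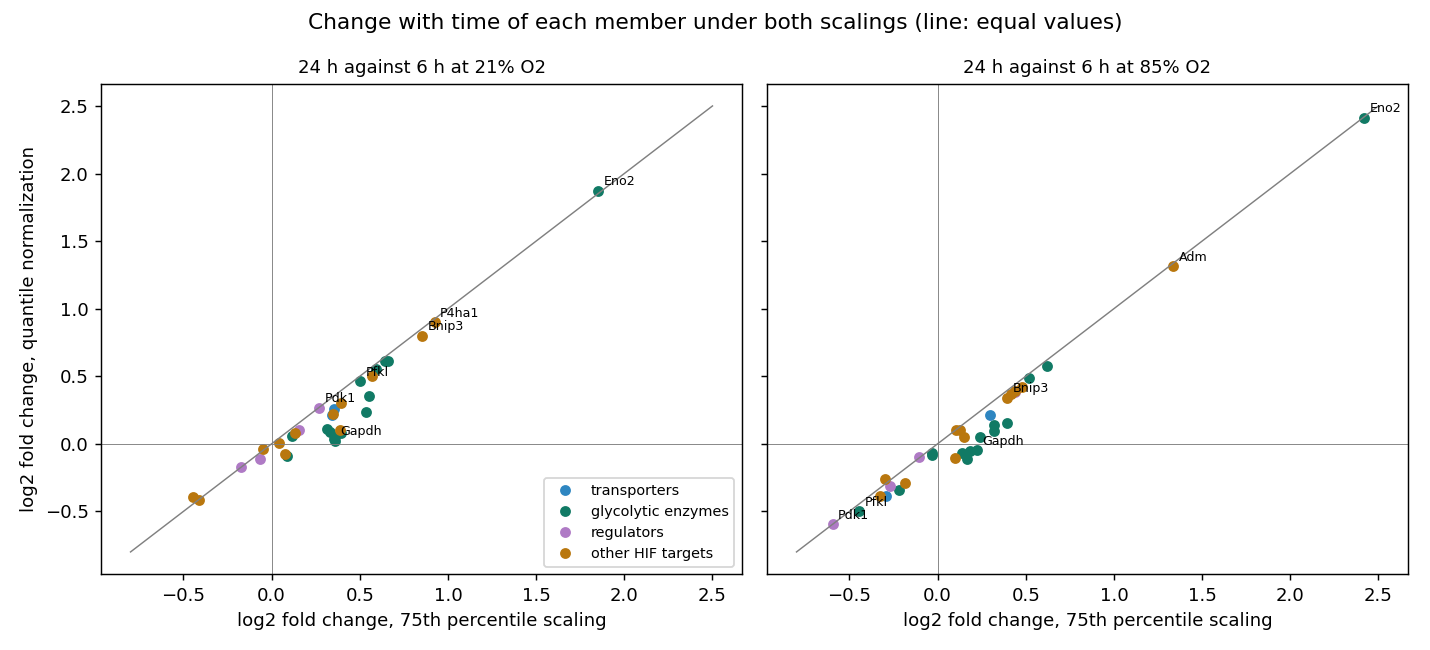
Log2 fold change of 24 h against 6 h for each tested member at 21% O2 and at 85% O2, with 75th percentile scaling on the horizontal axis and quantile normalization on the vertical axis. Eno2 and Adm lie near the line of equal values, while glycolytic enzymes such as Gapdh lie below it, and in 85% O2 some of them, Gapdh and Aldoa included, change sign.

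Other genes of the pathway were taken from 3 lists. Of 32 tested isoforms and pyruvate or glycogen genes outside the members, 0 were called at 6 h (3 higher and 0 lower at an unadjusted p under 0.05 in limma). At 24 h 6 rose and 4 fell, again near the background of 15.5% and 12.8%. The glycogen branching enzyme Gbe1 rose by 1.01 (SE 0.095, adjusted p = 2.06e-06), the heart-type lactate dehydrogenase Ldhb by 1.00 (SE 0.12, adjusted p = 1.96e-05) and the insulin-responsive glucose carrier Slc2a4 by 0.86 (SE 0.19). Glycogen synthase Gys1 fell by 0.58 (SE 0.085) on the log2 scale.

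Ldhb averaged 2.32 ± 0.10 in normoxia and 3.32 ± 0.20 in hyperoxia at 24 h, against 3.07 ± 0.19 in normoxia at 6 h. It thus fell over time in normoxia (-0.75, SE 0.12) and differed by 0.096 (SE 0.12) in hyperoxia. Gbe1 averaged 1.16 ± 0.054 and 2.17 ± 0.13 at 24 h. The difference of the hyperoxia effects was called for 3 genes of this list higher (Slc2a4 1.02, Ldhb 0.85 and Gbe1 0.79) and for 2 lower (Gys1 -0.60 and Pdp2, a phosphatase that reactivates pyruvate dehydrogenase, -0.43). Pdp2 also fell at 24 h in hyperoxia, by 0.53 on the log2 scale.

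Of 35 further HIF targets tested, 0 were called at 6 h (5 higher and 0 lower at an unadjusted p under 0.05 in limma). At 24 h 10 rose in hyperoxia and 2 fell, where 15.5% of all genes rose and 12.8% fell, with a median of 0.10. The estimate farthest from 0 was that of heme oxygenase Hmox1, 1.72 (SE 0.91, adjusted p = 0.185), which did not pass and is named here after its value was seen. Of the called genes, the transferrin receptor Tfrc rose by 0.91 (SE 0.14, adjusted p = 0.000212), the HIF prolyl hydroxylase Egln3 by 0.91 (SE 0.22, adjusted p = 0.00593) and endothelin Edn1 by 0.86 (SE 0.22). The hormone-like Stc2 fell by 0.82 (SE 0.18) on the log2 scale. The effect of hyperoxia differed between the times for Stc2 (-0.81), the mitochondrial adenylate kinase Ak4 (-0.73) and the sterol regulator Insig2 (0.44).

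Over time, 6 of the 32 isoforms and pyruvate or glycogen genes rose and 7 fell in normoxia, and 9 rose and 6 fell in hyperoxia. Of all genes 20.6% rose and 23.5% fell in normoxia, and 25% and 27.3% in hyperoxia, so these counts are near the background. Pdk4, a starvation-induced relative of Pdk1, fell with log2 fold changes of -1.38 (SE 0.25) and -1.19 (SE 0.25) in normoxia and hyperoxia. Bpgm, which makes the bisphosphoglycerate of red cells, fell too, with -1.08 (SE 0.087) and -0.84 (SE 0.087). The muscle enolase Eno3 rose, by 0.96 (SE 0.16) and 0.72 (SE 0.16), as did Eno2 among the members. Of the 35 further HIF targets 16 rose and 3 fell in normoxia, and 16 rose and 6 fell in hyperoxia. The lipoprotein receptor Vldlr rose by 1.90 (SE 0.15) and 1.29 (SE 0.15), and the collagen cross-linking oxidase Loxl2 by 1.23 (SE 0.11) and 1.01 (SE 0.11).

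The HIF factors and their oxygen sensors gave 0 calls of 10 at 6 h (2 higher and 0 lower at an unadjusted p under 0.05 in limma). At 24 h 2 rose (15.5% of all genes did), Egln3 and the asparaginyl hydroxylase Hif1an (0.30, SE 0.087, adjusted p = 0.0193). Hif1a differed by 0.29 (SE 0.11, adjusted p = 0.0668) and Epas1 by -0.065 (SE 0.12). The other subunit gene Arnt differed by 0.24 (SE 0.096), Egln1 by -0.017 (SE 0.12), Egln2 by -0.095 (SE 0.059) and Vhl by 0.050 (SE 0.090). Hif3a and Arnt2 did not pass, and the 10 estimates ran from -0.23 to 0.91. These are RNA levels, and HIF is controlled chiefly through the stability of its protein, which was not measured.

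The choice of probe mattered for Hk1, the housekeeping hexokinase. Its brightest probe carries coordinates on chromosome 5 (build mm9, as the files give them), while Hk1 lies on chromosome 10. It shares a run of 24 bases with a probe of the ribosomal protein gene Rpl17 and runs of up to 38 with probes that carry no gene symbol. This probe read 7.89, 7.82, 8.03 and 7.87 in normoxia and 7.84, 7.86, 7.97 and 7.86 in hyperoxia at 24 h, with overlap.

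The second Hk1 probe, on chromosome 10, read 3.42, 3.56, 3.40 and 3.72 in normoxia and 4.06, 4.03, 4.05 and 4.03 in hyperoxia at 24 h. All hyperoxia arrays were higher, with a log2 fold change of 0.52 (SE 0.11, adjusted p = 0.00231 over 36713 probes). The third, also on chromosome 10, gave 0.30 (SE 0.15, adjusted p = 0.153). Over time in normoxia the probes gave 0.36, -0.31 and -0.35, where the brightest rose, the second fell (adjusted p = 0.0315 over probes) and the third did not pass. The Rpl17 probe that shares 24 bases differed by 0.038 at 24 h and rose by 0.48 over time in normoxia. That rise was the largest among the Rpl17 probes, whose other estimates over time in normoxia ran from 0.12 to 0.39.

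Brightest probes of Gapdh, Pgk1 and Eno1 also carry coordinates off the chromosome of the gene. The Eno1 probe shares a run of 53 bases with a probe of Gm5506, the Gapdh probe runs of 48 and fewer with probes of LOC100048117, Gm5523 and Gm12070, and the Pgk1 probe 53 with a transcript contig, so signal of such copies cannot be told apart. The 8 probes of Gapdh gave log2 fold changes of -0.16 to -0.034 at 24 h. Among the 15 members with several probes, Hk1 alone had called probes of opposite direction in a comparison.

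**Figure D5:**
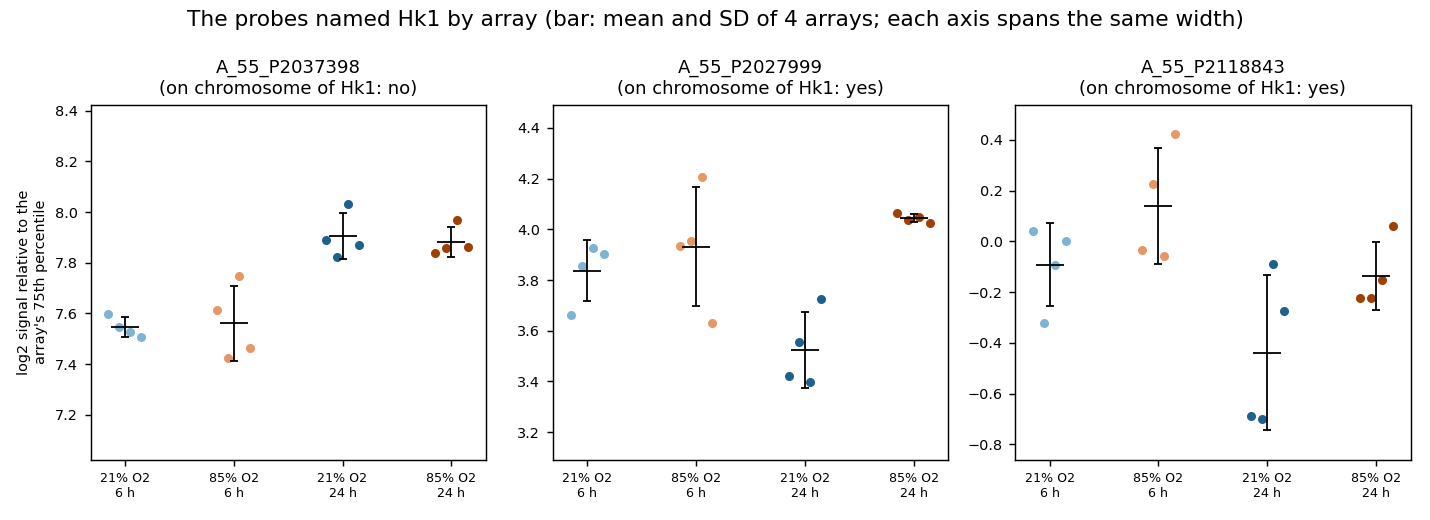
Log2 signal of the 3 probes named Hk1 on each array, by oxygen and time, with the mean and SD of 4 arrays; the vertical axes span equal widths at different levels. The brightest probe, left, lies off the chromosome of Hk1 and overlaps between oxygen groups at 24 h, while the middle probe is higher in hyperoxia at 24 h on all 4 arrays.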

How the data were processed

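Each array was a 1-colour Agilent scan of 1 sample. The deposited files hold the intensity of each spot, extracted with Agilent Feature Extraction 10.7.3.1 per the submitters' processing notes, and the background-subtracted processed signal was used. The authors also deposited a table of log2 values, used as an alternative. How it was made is not given in the sources used here, but each of its columns had a median of 7.19 and differed from quantile-normalized log2 scanner signals by a median of 0.000224 or less, so its values are uncentred log2 signals.

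Control spots were left out and spots of a probe averaged. Outlier-marked spots were left out only where an unmarked spot of the probe remained, and 432 of 55681 probes had more than 1 spot. The log2 processed signal less the 75th percentile of its array was tested with limma 3.58.1 in R 4.3.3 with 16 arrays in 1 model, which left 12 residual degrees of freedom and gave a prior of 2.23. Each gene had 1 probe, the brightest, kept where 3 or more of the 4 arrays in some group were well above background. P-values were adjusted by Benjamini-Hochberg over all 25419 genes, with a threshold of 0.05. Array number limits the precision. The scripts were tested on simulated data. Members and lists were chosen with earlier results of these data known. The text names all members and, of each further list and comparison, up to 4 called genes with the largest change. The HIF factors and sensors are given as values, apart from Hif3a and Arnt2. Markers of 9 cell types are given as counts.

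Replicate numbers follow slide columns. Residuals of same-numbered arrays at 24 h correlated at 0.244 to 0.344, all above 0.1, so the numbers were taken to pair normoxia with hyperoxia there, from this check alone. Alternatives were quantile, median and normexp settings, the authors' table, filters, probe choice, trend, array weights, the block, fewer arrays and leaving out each array. The authors' table nearly repeats the quantile setting, so counts over alternatives include that setting under both names. Choosing probes on the gene's own chromosome and adding Pkm were added after seeing the data. Promoters came from RefSeq on GRCm38.p6, and probe positions are those of the files.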

Additional observations from a re-analysis of the deposited data

Results flagged for a closer look

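In 6 of 132 groups of 4 arrays, 1 array stood apart from the other 3 by Dixon's criterion, where chance gives about 1 in 20 groups. Slc16a3 read 5.07 on normoxia 24 h replicate 3, against 5.45 to 5.50 on the others. Adm read -1.03 on normoxia 24 h replicate 2, against -0.24 to -0.082. Gapdh read 8.79 on hyperoxia 24 h replicate 3, against 8.63 to 8.65. The other 3 were in normoxia at 6 h: Eno1 read 7.55 on replicate 1 against 7.35 to 7.37, Ndrg1 read 3.63 on replicate 2 against 3.87 to 3.89, and Kdm3a read 1.82 on replicate 1 against 2.00 to 2.03.

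The effect of hyperoxia differed between 6 h and 24 h for 7 members by limma's test of the difference, 24 h less 6 h. The log2 differences were -0.86 for Pdk1, -0.94 for Pfkl, -0.80 for P4ha1, -0.72 for P4ha2, -0.64 for Slc16a3, -0.62 for Pfkp and -0.29 for Mif.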

How the results depend on the processing

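Over the alternatives tried, 3529 values kept direction and side of the threshold or moved little, 89 came to pass, 150 no longer passed, 32 counts or medians moved and 8 reversed; the cause was not tested. At 6 h the members called higher were 2 with normexp, the filter on all 16 arrays, the mean over probes, the trend or the replicate block within each time, 6 with array weights and 1 to 3 when single arrays were left out. At 24 h single arrays left 6 to 7 called higher and 3 to 6 lower. Own-chromosome probes added a call for Hk1 there, the mean over probes for Gpi1 and Hk1, and the block over both times for Hk2. Over time in normoxia the count higher was 10 with quantile normalization and the authors' table, and 17 to 22 without single arrays. The count lower was 0 with quantile, median, normexp, the authors' table or the compared arrays alone, 2 with array weights or own-chromosome probes, and 0 to 1 without single arrays. The median of the enzymes there was 0.11 with quantile and the authors' table and 0.60 with the median, and that of the other HIF targets 0.094, 0.094 and 0.45. In hyperoxia the count higher over time was 8 with quantile and the authors' table, and 10 to 17 without single arrays. The count lower was 7 with quantile, the authors' table or the trend, 1 with the median, 2 with no filter or the compared arrays alone, and 2 to 6 without single arrays. The enzyme median there was -0.048 with quantile and the authors' table and 0.44 with the median, and that of the other HIF targets 0.36 with the median. The difference was called higher for 2 members with normexp or the block within each time, 1 with the filter on all 16 arrays or the trend, 4 with array weights, and 0 to 3 without single arrays, with 6 to 8 lower.

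Reversed were Hk1 at 24 h (0.27 as the mean over probes, 0.52 with the own-chromosome probe) and over time in normoxia (-0.10 and -0.31), and in hyperoxia over time Aldoa (-0.054) and Gapdh (-0.048) with quantile normalization and with the authors' table. Over all genes at 6 h, 60 were called higher and 23 lower, against 303 and 263 with array weights and 137 and 79 with the block within each time. At 6 h residuals of same-numbered arrays correlated at 0.0863 to 0.354, so the numbers were not taken as pairs there, and the replicate block gave 2 members higher. At 24 h the block within each time lost no call and added Pdk1 and Bnip3. Over all genes it called 4811 higher and 4022 lower there, against 3947 and 3256 without it. Slide and time, and slide row and oxygen, cannot be told apart.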
